A study of Homo sapiens with 7 samples.

Results

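SR proteins and heterogeneous nuclear ribonucleoproteins (hnRNPs) are the main families of RNA-binding proteins that decide which exons of a transcript are kept. SR proteins carry RNA recognition motifs and a tail rich in arginine and serine, and mostly bind exonic enhancers and recruit the spliceosome. hnRNPs coat nascent transcripts and often silence exons by binding short sequences such as UAGG, G tracts or CA repeats. MYC is a transcription factor that pairs with MAX and binds E-boxes, of which CACGTG is the canonical form, and it is known to raise the expression of SRSF1, HNRNPA1 and other splicing factors in cancer cells. ATF4 is the transcription factor of the integrated stress response and binds composite sites such as TGATGCAAT. The genes described here are the protein-coding genes whose symbol starts with SRSF and a digit, or with HNRNP. There are 38 such genes, 12 SRSF and 26 HNRNP, among 20033 protein-coding genes with a position on the chromosomes of GRCh38.p14. A peak was counted for a gene when its centre lay inside the gene span or within 5 kb of it.

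The data were chromatin immunoprecipitation sequencing (ChIP-seq) peak lists from DLD-1, an established line of human colon adenocarcinoma cells, infected with a retrovirus that expresses MycER, a MYC protein that becomes active when 4-hydroxytamoxifen is added. All groups carried MycER, and the groups were ATF4 in control cells given vehicle, ATF4 after 8 hr with 500 nM of 4-hydroxytamoxifen, and MYC after the same activation, with 2 libraries each. There was no group with the inducer and without MycER, no MYC library of control cells was analysed here, and the labels do not say whether the MYC antibody separates MycER from the cells' own MYC or whether replicates were separate cultures. The cells are a single line, and the IgG sample had no peak list used here. Signal is the authors' normalized tag count, in tags scaled to 10 M (mega) tags per library, called tags below.

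Depth followed the replicate number, with 21.1 to 25 M tags in the replicate 1 libraries and 49.8 to 50.3 M in the replicate 2 libraries, and the MYC lists held 8636 and 22532 peaks in replicates 1 and 2. The weakest MYC peak listed had 3.8 tags in replicate 1 and 2.39 in replicate 2. A gene with no listed peak may therefore still carry weaker binding, and more so in replicate 1. Of 12 markers of colon epithelium fixed for the check of the cell type, 7 had a MYC peak in both libraries. KRT8 and CDH1 were among the 7, while EPCAM and KRT20 had no MYC peak in either library. The counts were 0 of 4 for markers of blood cells, 1 of 4 for fibroblasts, 1 of 3 for endothelium and 1 of 3 for neurons. Over all protein-coding genes the share was 24.7%. A peak is not expression, so these counts do not test the cell type.

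The start regions of 7 members are shown first, because they set the E-box content of a start beside the MYC signal of the gene. They are RefSeq sequences of GRCh38.p14, each from 250 bases before to 50 bases from the first base of the gene, written 5′ to 3′ on the strand of the gene. Capitals mark CACGTG, or, where a window holds none, the related E-box CACGCG in either orientation (CACGCG or CGCGTG). SRSF1 and SRSF7 had the highest MYC peaks of all members, HNRNPD and HNRNPA3 had, in replicate 2, a strong and a weaker MYC peak on opposite sides of a CACGTG, HNRNPH3 had a MYC peak over its CACGTG, and HNRNPM and HNRNPH2 hold CACGTG without any listed MYC peak.
SRSF1, chr17:58007197-58007496, minus strand: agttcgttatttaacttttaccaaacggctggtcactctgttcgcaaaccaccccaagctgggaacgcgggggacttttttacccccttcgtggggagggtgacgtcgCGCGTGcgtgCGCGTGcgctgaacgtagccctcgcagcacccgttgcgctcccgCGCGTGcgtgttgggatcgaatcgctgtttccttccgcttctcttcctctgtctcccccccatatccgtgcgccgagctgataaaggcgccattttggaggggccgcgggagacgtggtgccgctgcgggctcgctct
SRSF7, inner start, chr2:38751312-38751611, minus strand: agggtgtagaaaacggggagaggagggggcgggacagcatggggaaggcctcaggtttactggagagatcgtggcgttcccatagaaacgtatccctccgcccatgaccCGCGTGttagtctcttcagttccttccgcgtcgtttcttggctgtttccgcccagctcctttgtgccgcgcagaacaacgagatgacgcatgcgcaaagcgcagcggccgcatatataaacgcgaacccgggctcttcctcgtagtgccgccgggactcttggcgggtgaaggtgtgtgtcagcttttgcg
HNRNPD, chr4:82373942-82374241, minus strand: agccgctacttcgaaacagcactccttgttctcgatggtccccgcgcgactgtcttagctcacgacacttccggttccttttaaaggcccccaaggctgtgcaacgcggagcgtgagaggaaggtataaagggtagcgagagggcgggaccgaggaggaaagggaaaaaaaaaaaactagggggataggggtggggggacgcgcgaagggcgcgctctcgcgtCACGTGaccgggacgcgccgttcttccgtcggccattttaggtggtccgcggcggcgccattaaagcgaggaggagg
HNRNPA3, chr2:177212544-177212843, plus strand: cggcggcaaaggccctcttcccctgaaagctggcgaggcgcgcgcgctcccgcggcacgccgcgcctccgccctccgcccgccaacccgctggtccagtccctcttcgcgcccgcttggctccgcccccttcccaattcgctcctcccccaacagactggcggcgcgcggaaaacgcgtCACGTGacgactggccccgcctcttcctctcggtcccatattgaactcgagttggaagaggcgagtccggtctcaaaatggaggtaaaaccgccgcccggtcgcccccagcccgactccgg
HNRNPH3, outermost start, chr10:68331443-68331742, plus strand: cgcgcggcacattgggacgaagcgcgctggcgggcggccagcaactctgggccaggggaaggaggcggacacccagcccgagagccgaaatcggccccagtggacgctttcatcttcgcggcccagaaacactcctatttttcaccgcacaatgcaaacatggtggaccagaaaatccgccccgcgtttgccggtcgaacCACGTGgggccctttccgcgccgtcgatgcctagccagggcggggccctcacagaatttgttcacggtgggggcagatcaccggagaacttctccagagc
HNRNPM, chr19:8444725-8445024, plus strand: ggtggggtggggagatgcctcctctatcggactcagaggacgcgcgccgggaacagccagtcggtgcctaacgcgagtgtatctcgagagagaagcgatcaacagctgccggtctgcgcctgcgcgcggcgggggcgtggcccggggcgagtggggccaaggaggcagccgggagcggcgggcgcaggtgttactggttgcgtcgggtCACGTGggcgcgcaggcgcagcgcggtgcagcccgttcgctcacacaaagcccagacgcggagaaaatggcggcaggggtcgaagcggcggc
HNRNPH2, chrX:101407972-101408271, plus strand: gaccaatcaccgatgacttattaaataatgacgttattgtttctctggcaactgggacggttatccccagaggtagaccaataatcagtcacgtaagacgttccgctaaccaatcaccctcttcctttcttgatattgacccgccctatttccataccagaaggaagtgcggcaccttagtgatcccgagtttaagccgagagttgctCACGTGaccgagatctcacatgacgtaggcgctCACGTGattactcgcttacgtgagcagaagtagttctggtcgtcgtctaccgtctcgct

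MYC binding was found at a subset of the family and, by tags, was strongest at 2 SR genes. SRSF1, SRSF7 and SRSF11 among the SR genes and HNRNPD, HNRNPA1, HNRNPA3, HNRNPF, HNRNPH1, HNRNPH3, HNRNPL and HNRNPU among the hnRNP genes had a MYC peak in both libraries. These were 11 of 38 members, or 28.9% (exact 95% binomial interval 15.4 to 45.9%, for counting error only), and the same rule called 24.7% of all protein-coding genes. The share of members with a MYC peak was thus near that of all genes. In replicate 1 alone the same 11 of 38 members had a MYC peak, against 25.9% of all genes. In replicate 2 alone 25 of 38 members did (65.8%, 48.6 to 80.4%), against 54.5% of all genes. No member had a MYC peak in replicate 1 only, 14 had it in replicate 2 only and 13 had none.

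The members are short, with a median gene span of 11.4 kb against 24.1 kb for all protein-coding genes. The rule above takes in the gene body. Its shares were not matched for gene length, and the part of length in them was not tested. Counted instead as genes with an annotated start within 1 kb of a MYC peak centre in both libraries, a count added after the data were examined, 9 of the 34 members with a start in the RefSeq promoter table were called (26.5%, 12.9 to 44.4%), against 11.9% of 15842 genes. SRSF2, HNRNPA1, HNRNPCL3 and HNRNPA1L3 had no entry in that table. Among genes with a peak in both libraries, the median of the strongest peak per gene was 8.08 tags in replicate 1 and 15.6 in replicate 2 for members, and 6.18 and 9.58 for all such genes. Among genes with a peak in replicate 2, listed in replicate 1 or not, the replicate 2 medians were closer, 8.18 for members and 5.99 for all such genes. No test was made of these medians, since the members were chosen with earlier results of these data known.

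**Figure D1:**
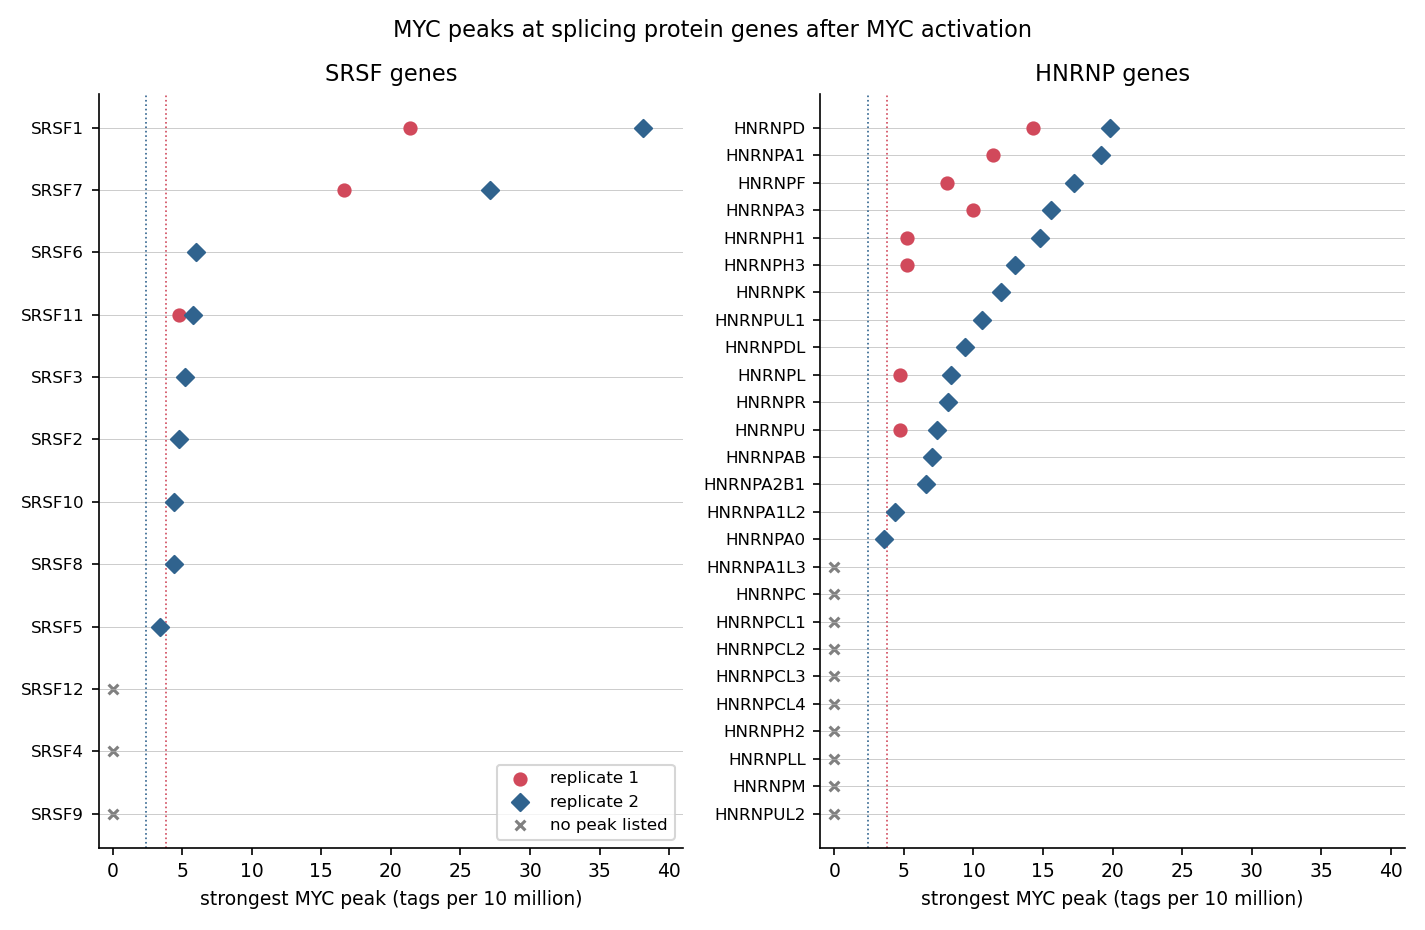
Tags of the strongest MYC peak (x axis, tags per 10 M) of each SRSF gene (left) and HNRNP gene (right) in replicate 1 (circles) and replicate 2 (diamonds), with crosses at 0 for genes with no listed peak and dotted lines at the lowest tag count listed in each library (3.8 and 2.39). SRSF1 and SRSF7 stand above all other SRSF genes in both libraries, while the HNRNP genes form a graded series from 19.8 tags down to the weakest listed peaks.

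SRSF1, among the first SR proteins found and a known oncoprotein, had the strongest MYC peak of all members. It had 21.4 tags in replicate 1, rank 86 of the 8636 MYC peaks of that library, and 38.1 tags in replicate 2, rank 17 of 22532. The authors' fold over the background library was 46.3 and 55.0 there. The peak lay inside the gene, 650 and 630 bp downstream of the annotated start (chr17:58006522-58006670 in replicate 1 and chr17:58006528-58006704 in replicate 2). The SRSF1 start window printed above has no CACGTG and 3 copies of CGCGTG. The peaks themselves lie outside that window.

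SRSF9, the closest relative of SRSF1 in protein sequence, had no MYC peak in either library. The pair therefore sits at opposite ends of the family by MYC signal in these lists. SRSF7, an SR protein with a zinc knuckle that also acts in mRNA export, came next after SRSF1 with 16.6 tags in replicate 1 (rank 179) and 27.1 in replicate 2 (rank 99). Its peak centre lay 113 and 174 bp downstream of the inner of its 2 annotated starts. SRSF3, the smallest SR protein and the relative of SRSF7 that shares its export role, had a peak in replicate 2 only, with 5.19 tags and a fold over background of 2.25. This was the lowest fold among the strongest MYC peaks of the members.

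The remaining SR genes had MYC peaks that were weak by tags, or none. By fold over background in replicate 2 the order differed, with 38.0 at SRSF10, 25.9 at SRSF6 and 14.7 at SRSF5, beside 16.8 at SRSF7. SRSF11, SRSF2 and SRSF8 had folds of 6.26, 4.15 and 6.34. SRSF11, an arginine and serine rich protein of the spliceosome, had 4.75 tags in replicate 1, at an inner start, and 5.79 in replicate 2 as its strongest. The replicate 2 peak of 5.79 tags lay 262 bp downstream of the outermost start, within 1 kb of a start of the neighbouring LRRC40, and a second peak of 3.19 tags overlapped the replicate 1 peak at the inner start. In the group of SRSF4, SRSF5 and SRSF6, which share a similar domain layout, SRSF6 had 5.99 tags and SRSF5 had 3.39 tags in replicate 2, and SRSF4 had no peak. SRSF2, known as SC35 and a marker of nuclear speckles, had 4.79 tags in replicate 2 only, at a site within 1 kb of a start of its neighbour MFSD11. SRSF8, a retrocopy of SRSF2, had peaks in replicate 2 only, 1 with 4.39 tags 3792 bp outside the gene and 1 with 4.19 tags inside it, 1865 bp downstream of a start. SRSF10, a splicing repressor when dephosphorylated, had 4.39 tags in replicate 2 only, and its relative SRSF12 had no peak. The 6 SR genes with a peak in replicate 2 only thus ranged from 3.39 to 5.99 tags, with a median of 4.59. Over all SR genes with a replicate 2 peak the median of the strongest peak was 5.19, beside 5.99 over all protein-coding genes with a peak in that library.

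Among the hnRNP genes, HNRNPD had the strongest MYC peak. HNRNPD, or AUF1, binds AU-rich elements and promotes mRNA decay, and had 14.3 tags in replicate 1 and 19.8 in replicate 2. The peak centre lay 776 and 758 bp downstream of its start (chr4:82373141-82373289 and chr4:82373145-82373321). A further replicate 2 peak with 6.39 tags lay 386 bp upstream. The single CACGTG of its start window, beginning 27 bp before the first base of the gene, lies between the peaks. Its paralog HNRNPDL, also on chromosome 4, had 9.38 and 7.98 tags at 2 peaks in replicate 2 only, inside the gene and near its neighbour ENOPH1. HNRNPAB, the third paralog, had 6.99 tags in replicate 2 only, 37 bp upstream of its start, with a fold over background of 60.5.

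The A family was uneven as well. HNRNPA1, which binds UAGG and silences exons, including that of the adult form of pyruvate kinase M, had 11.4 tags in replicate 1 and 19.2 in replicate 2, with folds over background of 49.4 and 27.6. Its peak lay inside the gene, 316 and 251 bp from the nearest end of the gene span (chr12:54280968-54281116 and chr12:54280889-54281065), and within 1 kb of a start of CBX5, a heterochromatin protein gene. The peak can therefore not be assigned to HNRNPA1 alone. HNRNPA3, a close paralog, had 9.98 tags in replicate 1 and 15.6 in replicate 2, at 539 and 521 bp upstream of its start. The fold over background at this peak was 3.60 and 6.74, the lowest in replicate 1 among members. A further replicate 2 peak of 7.38 tags lay 580 bp downstream, so that the CACGTG that begins 71 bp before the first base of HNRNPA3 lies between its peaks.

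HNRNPA2B1, a partner of HNRNPA1 that also binds methylated RNA, had 6.59 tags in replicate 2 only, 469 bp downstream of its start. A second peak of 5.79 tags lay 1779 bp upstream, on the side of CBX3. HNRNPA0, a single-exon member of the family, had 3.59 tags in replicate 2 only. This is under the lowest tag count that replicate 1 lists. HNRNPA1L2, an HNRNPA1-like gene, had 4.39 tags in replicate 2 only, and HNRNPA1L3 had no peak. For these near-identical copies reads can map to several places, and how the authors treated such reads is not given in the sources used here.

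The F and H family, whose members bind G tracts, had MYC peaks in both libraries at 3 of its 4 genes. HNRNPF had 8.08 tags in replicate 1 and 17.2 in replicate 2, at 892 and 974 bp downstream of its outermost start. A replicate 2 peak of 6.39 tags lay at -139 bp from its inner start, on the upstream side. HNRNPH1 had 5.23 and 14.8 tags at 85 and 59 bp downstream of an inner start, 9408 and 9434 bp from the nearest end of the gene span. No MYC peak lay at the outermost HNRNPH1 start. A further peak of 7.18 tags in replicate 2 lay at another inner start, so that both HNRNPH1 peaks marked starts within the span. HNRNPH3 had 5.23 tags in replicate 1 and 13.0 in replicate 2, at 105 and 2 bp upstream of its outermost start, over the CACGTG that begins 50 bp before the first base. HNRNPH2, the X-linked relative of HNRNPH1, had no MYC peak in either library, although its start window holds 2 copies of CACGTG.

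The other hnRNP genes had peaks of middle or low rank. HNRNPL, which binds CA repeats, had 4.75 tags in replicate 1 and 8.38 as its strongest of 3 peaks in replicate 2, the replicate 2 peak over the replicate 1 site having 7.98 tags, while its relative HNRNPLL, known for the splicing of CD45 in lymphocytes, had none. HNRNPU, the scaffold attachment factor that binds chromatin and RNA, had 4.75 and 7.38 tags at 1600 and 1641 bp downstream of its start. HNRNPUL1, of the same family, had 10.6 tags in replicate 2 only, at -147 bp from an inner start, and HNRNPUL2 had none. HNRNPK, which binds C-rich RNA, had 12 tags in replicate 2 only, the highest value of a member without a replicate 1 peak, at a site within 1 kb of a start of RMI1. HNRNPR had 8.18 tags in replicate 2 only. HNRNPC, which binds U tracts and packages nascent transcripts, HNRNPM and the 4 HNRNPC-like genes HNRNPCL1, HNRNPCL2, HNRNPCL3 and HNRNPCL4 had no MYC peak. The 10 hnRNP genes without a MYC peak thus include HNRNPC and HNRNPM as well as the HNRNPC-like copies. Whether reads at the HNRNPC-like copies map to several places was not examined, so their lack of a peak may not be a lack of binding.

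The 11 members fell in nearly the same order of tags in both MYC libraries. SRSF1, SRSF7, HNRNPD and HNRNPA1 led in both, HNRNPA3 and HNRNPF exchanged places, and the 5 others were lowest in both, with ties in replicate 1. The largest differences in percent rank were at HNRNPL (top 66.8% in replicate 1 and 18.6% in replicate 2), HNRNPH1 (52.2% and 5.22%) and HNRNPH3 (52.2% and 7.21%). Both libraries are of activated cells, so these differences are not a change between conditions. The lists also differ in length, and the reason for the differences was not tested. SRSF1, SRSF7, HNRNPD and HNRNPA1 were within the top 7.19% of both lists. The ratio of replicate 2 to replicate 1 tags over the 11 members had a median of 1.68, against 1.45 for all genes with a peak in both libraries. At the 9 members whose strongest peaks overlapped between libraries, the ratio lay between 1.38 at HNRNPD and 2.83 at HNRNPH1. At SRSF11 and HNRNPL the strongest peaks were different sites, and the overlapping site had 4.75 tags in replicate 1 and 3.19 in replicate 2 at SRSF11, and 4.75 and 7.98 at HNRNPL.

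Whether a replicate 2 peak was also listed in replicate 1 followed its height. Over all MYC peaks of replicate 2, 15.8% of those from 4 to under 6 tags and 95.6% of those from 15 to under 20 tags overlapped a replicate 1 peak. The 25 members with a MYC peak in replicate 2 held 40 peaks there, of which 11 overlapped a replicate 1 peak, beside 28.0% of all replicate 2 MYC peaks. All 6 member peaks of 15 tags or more overlapped one (HNRNPA1, HNRNPA3, HNRNPD, HNRNPF, SRSF1 and SRSF7). From 4 to under 15 tags member peaks overlapped one less often than all peaks of like height. They did so at 0 of 12 peaks from 4 to under 6 tags and 2 of 11 from 6 to under 8 (40.0% of all peaks). From 8 to under 10 tags it was 0 of 4 (62.7%), and from 10 to under 15 tags 2 of 4 (83.7%). Under 4 tags it was 1 of 3, against 3.43%. The reason was not tested.

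**Figure D2:**
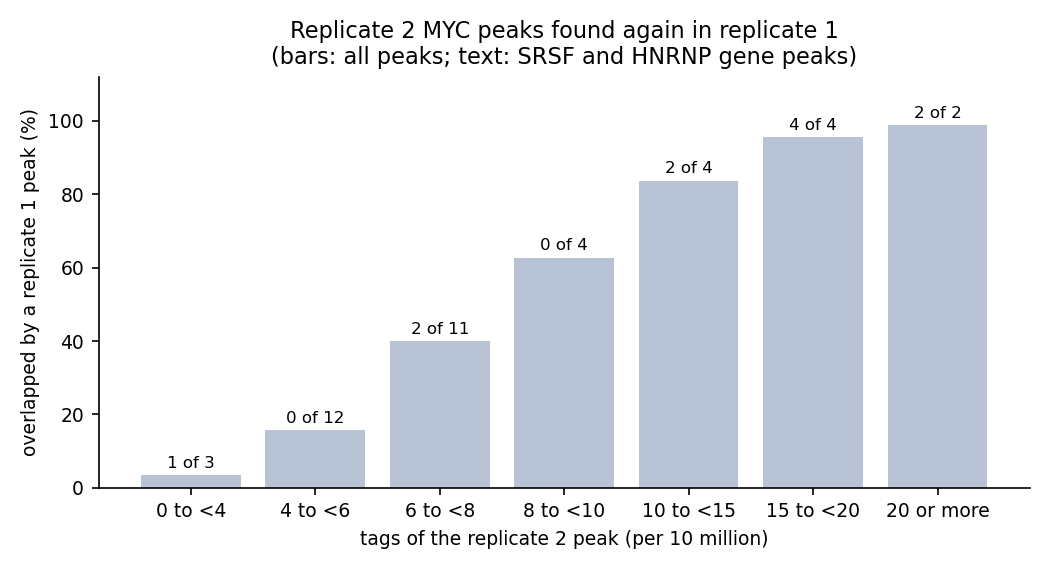
Share of replicate 2 MYC peaks that overlapped a replicate 1 MYC peak by at least 1 bp (y axis, %), by the tags of the replicate 2 peak (x axis, per 10 M). Bars are all replicate 2 MYC peaks and the text above each bar gives the count for peaks at SRSF and HNRNP genes, from 0 of 12 at 4 to under 6 tags to 2 of 2 at 20 tags or more.

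MYC peaks at members lay close to annotated starts. The strongest peak was within 1 kb of a start of the gene at 9 of 10 members in replicate 1 and at 20 of 23 in replicate 2, against 42.6% and 50.0% over all protein-coding genes with a peak and an annotated start. Members are shorter than all genes (median span 11.4 kb against 24.1 kb), which leaves less room for a peak far from a start. The shares were not matched for gene length, and its part in them was not tested. HNRNPU was the exception in replicate 1, and HNRNPU, HNRNPDL and SRSF8 were those in replicate 2. Of the members near a start, 6 of 9 in replicate 1 and 12 of 20 in replicate 2 had the peak downstream of it, against 48.7% and 48.8% over all genes near a start. SRSF1, SRSF7, HNRNPD and HNRNPF, with strong peaks, were on the downstream side, and HNRNPA3 was upstream in both libraries. Among members with several annotated starts, the strongest peak was nearest to an inner start at 4 of 6 in replicate 1 and 6 of 10 in replicate 2, close to the 67.5% and 63.8% over all such genes. SRSF7, SRSF11, HNRNPH1 and HNRNPL were those in replicate 1. Some of these short genes share their window with a neighbour, as HNRNPA1 does with CBX5, HNRNPK with RMI1 and SRSF2 with MFSD11.

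**Figure D3:**
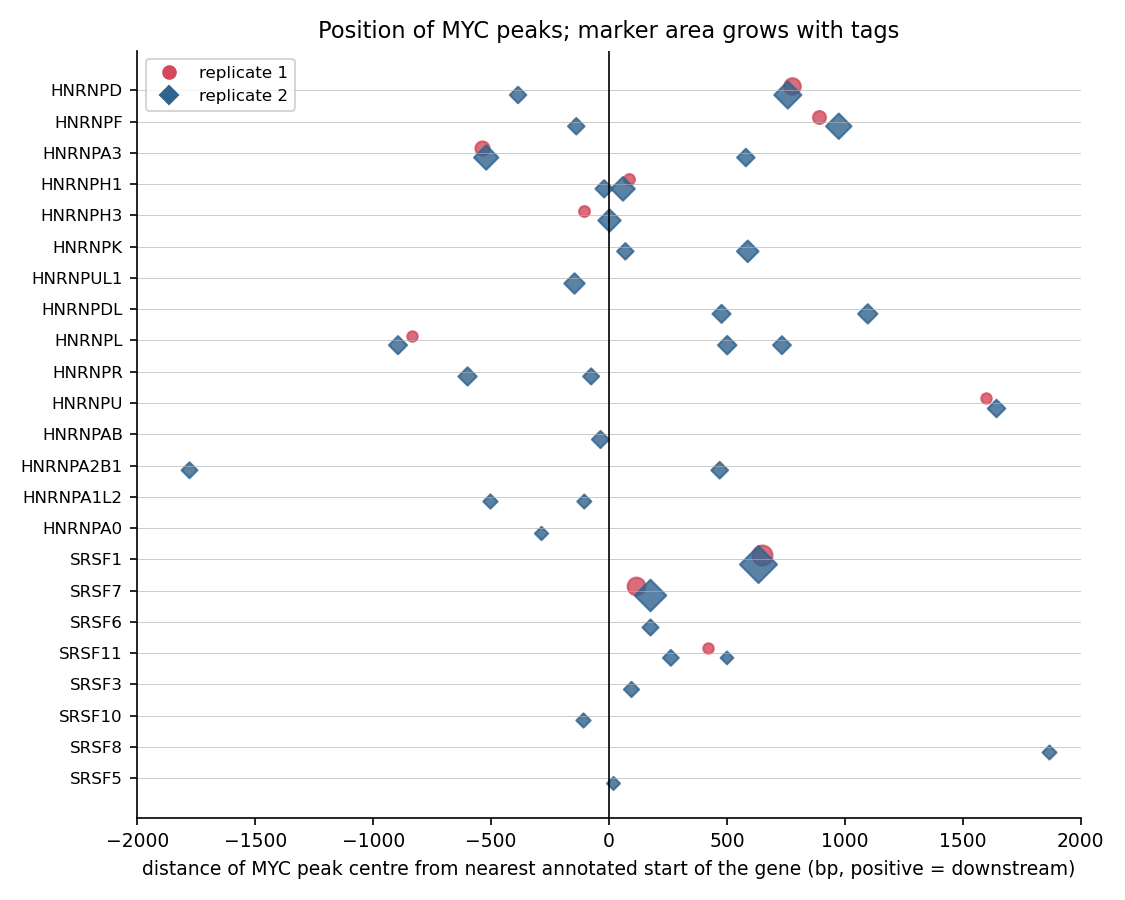
Distance of each MYC peak centre from the nearest annotated start of its gene (x axis, bp, positive values downstream) for members with a start in the promoter table, with replicate 1 as circles and replicate 2 as diamonds and a marker area that grows with tags. All 10 replicate 1 peaks and 35 of 38 replicate 2 peaks lie within 2000 bp and are drawn, and the large markers of SRSF1, SRSF7, HNRNPD and HNRNPF lie downstream of the start.

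CACGTG was present in a start window of 7 of the 34 members with an entry (20.6%), against 10.9% of 15842 protein-coding genes. The motif reads the same on both strands. The 7 were HNRNPA3, HNRNPD, HNRNPDL, HNRNPH2, HNRNPH3, HNRNPM and HNRNPUL1, and no SRSF gene was among them. CACGTG in the start window and a MYC peak at the gene did not go together at every member. Of the 10 members with an entry and a MYC peak in both libraries 3 had it (HNRNPA3, HNRNPD and HNRNPH3). HNRNPM and HNRNPH2 had it without a listed peak, and SRSF1 and SRSF7 had the highest peaks without it in the window. The windows of SRSF1, HNRNPD and HNRNPA3 held 0 bp of a MYC peak in either library, and those of SRSF7 no more than 11 bp. Whether these peaks hold CACGTG was therefore not examined. CACGCG, searched in both orientations, was present at 10 members (29.4%, against 18.1% of all genes), SRSF1, SRSF6, SRSF7, SRSF9 and SRSF10 among them. The start windows of members were also richer in CpG, with a median of 29 CpG against 21 in all windows of protein-coding genes, and E-box letters contain CpG, so the motif shares move with base composition. The part of base composition in these shares was not tested. The ATF4 site TGATGCAAT, searched on both strands, was in the window of 0 members and of 0.221% of all genes, and TGACGTCA was in 0 members and 3.0% of all genes.

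No member had an ATF4 peak in both libraries of a condition. Of all protein-coding genes, 0.624% had one in both control libraries and 1.41% in both activated libraries. In control cells HNRNPH1 alone had an ATF4 peak, with 4.17 tags in replicate 2. In activated cells replicate 1 had peaks inside HNRNPF (4.81 tags), HNRNPA2B1 (4.41), HNRNPC (4.41) and HNRNPL (4.41), and replicate 2 had a peak 2645 bp outside HNRNPUL2 (4.02). No SRSF gene had an ATF4 peak in any of the 4 libraries. These 6 ATF4 peaks had authors' folds over background between 2.97 and 6.36, and none was seen in the other replicate.

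Control replicates 1 and 2 thus had 0 and 1 members with an ATF4 peak, against 2.50% and 4.59% of all protein-coding genes, and activated replicates 1 and 2 had 4 and 1, against 3.59% and 6.60%. The means were 0.5 ± 0.707 in control and 2.5 ± 2.12 after activation (SD, n = 2), which did not differ beyond the spread between libraries (two-sided exact permutation test, p = 0.667, where the smallest p that 2 against 2 libraries can give is 0.333). With both libraries required, 0 of 38 members had an ATF4 peak in control cells, against 0.624% of all genes, and 0 of 38 in activated cells, against 1.41%. A count of 0 of 38 allows a share of up to 7.89% (3 counts of 38; the exact 95% interval reaches 9.25%), which includes the share over all genes, so a lack of ATF4 peaks at members was not detectable with this number of genes.

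None of the ATF4 peaks at members overlapped a MYC peak. The ATF4 peak of HNRNPF was 3532 bp downstream of its inner start, that of HNRNPL 5678 bp and that of HNRNPA2B1 7967 bp, and that of HNRNPC, a gene without MYC peaks, was 16902 bp downstream of its start. Members with an ATF4 peak that overlapped a MYC peak in activated cells numbered 0 within replicate 1 and 0 within replicate 2. Only 4 and 1 members had an activated ATF4 peak in these libraries. The share of all genes with such an overlap was not computed, so the counts show nothing particular to the members. With both libraries required the count was also 0, at an overlap and with centres up to 1000 bp apart. That count could not be higher, since no member had an ATF4 peak in both activated libraries. The nearest of the 352 regions with an ATF4 peak in both activated libraries lay 13.5 kb from SRSF8, the closest member, and 734 kb from SRSF1.

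Activated and control ATF4 signal was compared at 105 regions, those where each of the 4 ATF4 libraries had a peak. Of these, 37.1% were higher after activation and 0 lower by limma (adjusted p under 0.05), with 57 higher and 0 lower at an unadjusted p under 0.05. None of the 105 regions lay within 5 kb of an SRSF or HNRNP gene, so no member entered this comparison. The calls over all 105 regions did not hold with a replicate block, without any 1 library, or, in their direction, with each library centred on its median (0, 0 and 9 regions, the 9 all lower).

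Other genes of the splicing machinery were read by the same MYC rule from lists chosen with earlier results of these data known. Of 20 SR kinases and SR-related proteins 9 had a MYC peak in both libraries (45.0%), of 30 other splicing regulators 15 did (50.0%), and of 39 core spliceosome genes 21 did (53.8%), beside the 24.7% of all genes and the 28.9% of SRSF and HNRNP genes. The genes of these lists are longer, with median spans of 32.2, 44.3 and 16.9 kb against 11.4 kb. Counted by a start within 1 kb of a MYC peak centre in both libraries, 5 of 17, 7 of 22 and 18 of 35 genes with a start were called, beside 9 of 34 members and 11.9% of all genes. SRPK1, the main kinase of SR proteins, had 7.61 tags in replicate 1 and 8.58 in replicate 2. PTBP1, an hnRNP by biochemistry that represses exons and is known as a MYC target together with HNRNPA1, had 3.8 and 9.78 tags. PRMT5, the methyltransferase of the Sm proteins, had 7.61 and 20 tags. Each of these had a peak in both libraries and lower tags than SRSF1. ATF4 peaks in both activated libraries were found at 2 of the 30 other regulators (6.67%, against 1.41% of all genes), TAF15 and MBNL2, named after their values were seen, and at 0 genes of the SR-related and core lists. MBNL2 had ATF4 peaks in both control libraries as well, with 7.14 and 5.96 tags, against 8.02 and 14.9 in activated cells. These are the strongest peaks of the gene in each library, and whether they lie at the same site was not examined.

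**Figure D4:**
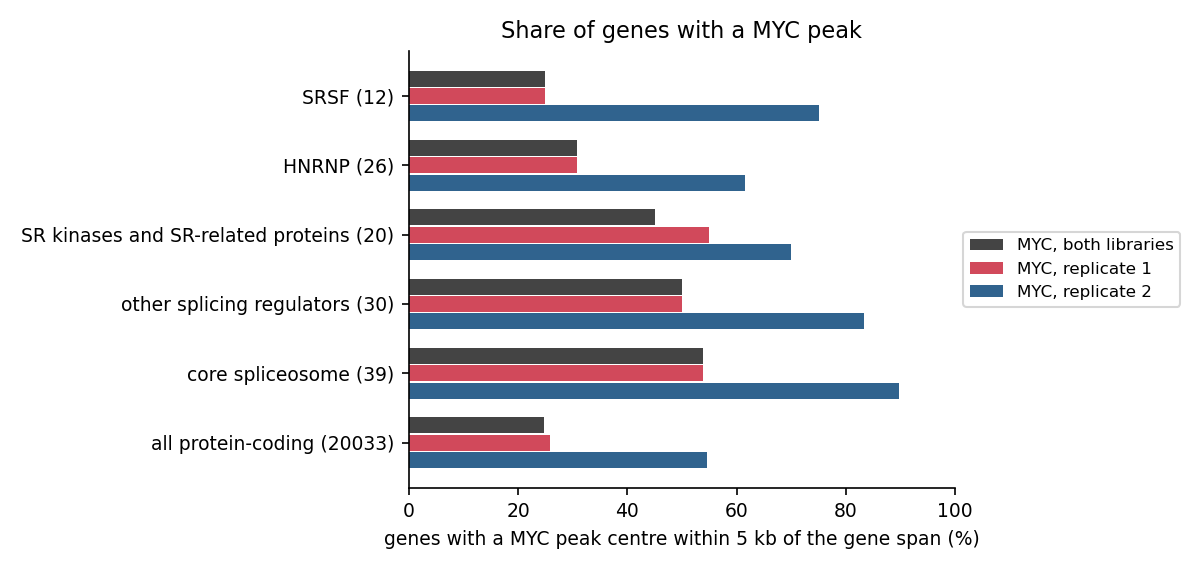
Share of genes (x axis, %) with a MYC peak centre within 5 kb of the gene span, in both libraries (dark), in replicate 1 (red) and in replicate 2 (blue), for the SRSF and HNRNP genes, 3 lists of other splicing genes and all protein-coding genes, with the number of genes in parentheses. The SRSF and HNRNP bars for both libraries (25% and 30.8%) lie near the bar of all genes (24.7%), and the core spliceosome bar reaches 53.8%.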

How the data were processed

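Peak lists of 6 libraries were used, with groups and replicate numbers from the sample titles. Reads were aligned with Bowtie 0.12.9 to hg38 and peaks called per library with HOMER, per the submitters' processing notes, which give no settings here. Per the file headers, each deposited peak has a normalized tag count (a signal, set by the authors to a common library size of 10 M), total tags (a whole-number count in replicate 1 lists and a signal scaled to the background library in replicate 2 lists), a focus ratio (a fraction), a peak score, a fold and a p-value over background and surroundings. The fold, score and p-value are the authors' own values. Because total tags are not counts in every list, the count test held in reserve was not used.

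Gene spans and starts were RefSeq GRCh38.p14, and 34 of 38 members matched the promoter table. The strongest peak per gene and library was taken. Library depth was read from tags per normalized tag or from the steps between low values. ATF4 regions (peaks merged at an overlap of 1 bp) were fitted with limma 3.58.1 (R 4.3.3, trend, log2(tags + 1), Benjamini-Hochberg over all 105 regions). Fold changes on this scale understate weak regions. The fit was first checked on simulated regions, with changes above the median change seen here and no depth difference between libraries. That check does not cover the calls lost under the alternatives. Python 3.11.15, pandas 2.3.3 and scipy 1.17.1 did the rest. The members and lists were chosen with earlier results of these data known. By rule every member was named, with values in each library for members with a MYC peak in both libraries (sentences of their own for the 10 highest ranked per family) or with any ATF4 peak, and the 3 members whose rank differed most between MYC libraries were named. They are given here by paralog group. Since the labels do not say whether replicates were separate cultures, p-values cover variation among these libraries alone, possibly technical in origin. Alternatives were the gene window, fold minimum, overlap, libraries left out, pseudocount, centring, replicate block and motif.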

Additional observations from a re-analysis of the deposited data

How the results depend on the processing

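The 11 members with a MYC peak in both libraries became 6 when peaks had to reach 8-fold above background, and between 11 and 25 when 1 MYC library was left out. They were between 9 and 13 under the other alternatives (gene windows of 0, 1 and 10 kb, 4-fold, any overlap of peak and window, and, added after the data were examined, overlapping peaks or a start within 1 kb). Apart from single libraries and the start rule, the share over all genes was not computed under the alternatives for MYC or ATF4 peaks. Member counts under them can therefore not be set against all genes. Members with an ATF4 peak in both libraries stayed at 0 with a window of 10 kb and with any overlap of peak and window. Narrower windows and fold minima also gave 0, but could not raise a count of 0. With a library left out the members numbered 1 to 4 in activated and 0 to 1 in control cells. The median of the strongest MYC peak over members, 8.08 tags in replicate 1 and 8.18 in replicate 2 over members with a peak in that library, became 6.66 and 8.28 when peaks had to reach 4-fold and 13.0 in replicate 2 with all peaks of a gene summed. Members with an E-box rose from 7 to 18 when CACGCG and CATGTG were allowed (52.9%, against 34.6% of all genes). The excess of members with an ATF4 peak after activation, 2.0, fell to between 0.5 and 1.5 under its alternatives. It was 0.5 when peaks had to reach the lowest tag count common to all 4 ATF4 libraries, with 1 member left, in activated replicate 1. Over all 105 common ATF4 regions, the 39 changed regions became 0 with a replicate block (smallest limma adjusted p 0.115, 37 higher at an unadjusted p under 0.05), 0 without each of the 4 libraries in turn (24 to 47 higher at an unadjusted p under 0.05, the lone library being assumed to vary like the other group), and 9, all lower, with each library centred on its median, which moved the median log2 change from 0.54 to -0.11. The labels do not say that a replicate number marks a shared batch, and same-numbered deviations correlated at 0.098 over 2 pairs, but depth and the form of the total tags followed the number, and their part in the calls lost under the block was not tested. ATF4 tags at member regions and E-boxes in the peaks themselves were not computed, the first because no common region lay at a member and the second because no genome sequence was used here. Replicate 1 of MYC had the lower depth and the higher lowest listed tag count, and the part of depth in its fewer calls was not tested.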

Other observations

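Other splicing genes with high MYC peaks, chosen after their values were seen, were spread over the machinery. PCBP1, a poly(C)-binding protein related to HNRNPK, had 10.5 tags in replicate 1 and 25.3 in replicate 2. SF3B3 of the U2 particle had 15.7 and 23.9, and U2AF2, the large subunit of the factor that binds the polypyrimidine tract, had 14.3 and 23.4. RBM39, an SR-related coactivator, had 15.2 and 20.6 tags and SON, a scaffold of nuclear speckles, 12.4 and 15.4. In both libraries these values lie below those of SRSF1.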
